A study of Mus musculus with 8 samples.

Results

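The genes that take glucose into the cardiomyocyte, break it down to pyruvate and pass that pyruvate to lactate or to the mitochondrion, with the glycogen enzymes beside them, form the set described here. The set was a written list of 38 genes matched by symbol, of which 36 were among the 11367 genes measured. The lactate exporter Slc16a3 and the phosphofructokinase regulator Pfkfb1 were the 2 not analysed here. Their mRNA was read by sequencing in 8 libraries, each from ventricular cardiomyocytes of adult C57BL/6 mice. The control group (n = 4) was kept for 24 h in M199 medium, and the conditioned-medium group (n = 4) for 24 h in M199 in which CCR2+ cardiac macrophages had been cultured. Those macrophages were sorted from the hearts of Ccr2gfp/+ mice 4 weeks after transverse aortic constriction (TAC), a surgical pressure overload. Both media carried the myosin inhibitor (–)-Blebbistatin, insulin-transferrin-selenium (ITS) and CD lipid, so that all cells were non-contracting and exposed to insulin. Serum is named in the methods for the medium of the sorted macrophages and not for the control medium, so serum and macrophage products cannot be told apart. The labels do not say whether replicate libraries represent separate mice or preparations, so the p values measure only the spread between these libraries.

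Glucose enters heart muscle cells through the facilitative carriers GLUT1, encoded by Slc2a1, and GLUT4, encoded by Slc2a4, the latter moved to the cell surface by insulin and by contraction. Hexokinase traps it as glucose 6-phosphate, which is either stored as glycogen or committed to glycolysis at phosphofructokinase. The resulting pyruvate is turned into lactate or carried into the mitochondrion, where pyruvate dehydrogenase is switched off by its kinases and on by its phosphatases. The healthy adult heart draws most of its energy from fatty acids, and greater use of glucose is a known feature of the fetal and of the overloaded heart.

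Values were FPKM, fragment counts scaled to gene length and to library size. The cells expressed the markers of their label, with the summed FPKM of 12 cardiomyocyte genes at 7848 to 12350 in control libraries and 8349 to 10500 in replicates 1 to 3 of the conditioned medium. Conditioned-medium replicate 4 stood apart from the other 7 libraries. Its 13 mitochondrially encoded genes held 63.0% of all FPKM, against 30.2% to 40.7% in the control libraries and 30.8% to 35.1% in replicates 1 to 3. Its summed cardiomyocyte markers were 4587 FPKM and its 16 summed endothelial markers 675 FPKM, against 152 to 346.5 in control and 343 to 415 in replicates 1 to 3. The part of these features in the values below was not tested, and each comparison is therefore given with and without that library. Markers of other cell types mostly had positive fold changes. All 16 endothelial genes and all 12 entries for 11 of the 16 listed macrophage genes had positive log2 fold changes, with medians of 0.71 in both lists. None of them passed the adjusted p. At an unadjusted p under 0.05 (limma), 13 endothelial and 4 macrophage entries were higher, beside 8.78% of all genes. Without replicate 4 these counts were 11 and 4, beside 9.79%. All conditioned-medium libraries lay above all controls for 8 endothelial and 1 macrophage entries, beside 5.08% of all genes. The summed macrophage markers were 24.6 to 185 FPKM in control and 157 to 179 in conditioned-medium libraries. Of 16 fibroblast markers 1 rose, and of 11 mural markers 0 rose or fell.

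None of the 36 members rose or fell under the conditioned medium (limma on log2(FPKM + 1), two-sided, Benjamini-Hochberg adjusted p under 0.05 over all genes). Over all genes 63 rose, which is 0.554% of those tested, and 0 fell. At an unadjusted p under 0.05, 0 members were higher, where 8.78% of all genes were, and 2 were lower, Slc2a4 and Pdk4, where 0.845% of all genes were. An F test of the kind Ballgown uses, fitted with a library-size term, called 0 members, but it also called 0 of all 11367 genes. In that fit 5 members were lower at an unadjusted p under 0.05, and the share of all genes is not given here. Array weights, which let limma count deviating libraries of either group for less, called 3 members. These were Slc2a4 and Pdk4 as lower and Pfkfb3 as higher, beside 0.449% of all genes lower and 7.76% higher in that fit. Fold changes of the members were nevertheless mostly below 0. They were negative for 31 of 36 members, with a median log2 fold change of -0.34 and a range from -0.82 to 0.35, whereas 46.1% of all genes were negative, with a median of 0.02. Of the 12 cardiomyocyte markers 11 were negative, with a median of -0.38, and 0 of them passed the test. Without conditioned-medium replicate 4 the members were split into 20 negative and 16 positive, with a median of -0.05 beside 0.12 for all genes, of which 23.3% were negative. The median of the cardiomyocyte markers was then -0.07, with 10 of 12 negative. In that comparison 0 members passed the adjusted p. At an unadjusted p under 0.05, 1 member was higher (Pfkfb3), beside 9.79% of all genes, and 4 were lower (Slc2a4, Hk2, Pgam2 and Pdk4), beside 0.809%. In bulk RNA, fewer cardiomyocytes and less of an mRNA in each cardiomyocyte cannot be told apart.

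Replicate 4 had the lowest of the 8 values for 32 of 36 members, and 50.3% of all genes were lowest there. The share was 88.9% of the members and 91.7% of the cardiomyocyte markers (11 of 12). Pgam1 and Eno1 were the 2 members with their highest value in it, as were 12.7% of all genes, and Slc2a1 and Pfkl lay within the range of the others. The members together made up 1.06% to 1.21% of all FPKM in control libraries, 1.02% to 1.17% in replicates 1 to 3 and 0.460% in replicate 4. As a share of FPKM from nuclear genes alone they made up 1.55% to 1.91%, 1.56% to 1.69% and 1.25%. The members' share in replicate 4 was thus also below that of the other 7 libraries when the mitochondrially encoded genes were left out. Rescaled to equal nuclear totals, the members had a median log2 fold change of -0.24 with 29 of 36 negative. The median of all genes was then 0.10, with 3758 of 11367 negative.

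**Figure D1:**
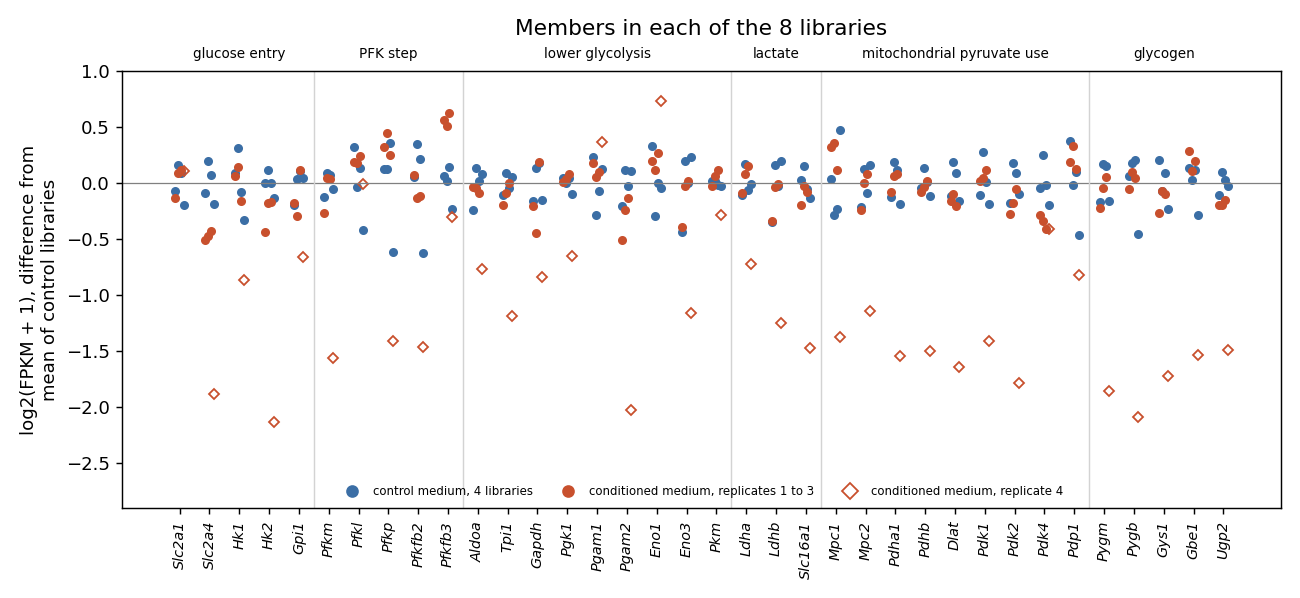
Each of the 36 measured members is placed along the x axis by role, and the y axis gives log2(FPKM + 1) as the difference from the mean of the 4 control libraries. Conditioned-medium replicate 4 (open diamonds) is the lowest of the 8 libraries for 32 members, while replicates 1 to 3 (orange) mostly lie among the controls (blue).

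The 4 conditioned-medium libraries lay below all 4 control libraries for 4 members, Slc2a4, Hk2, Pdk4 and Ugp2. That is 11.1% of the members, where 1.46% of all genes lay wholly below control. No member lay wholly above control, where 5.08% of all genes did. With replicates 1 to 3 alone the same 4 members were below, beside 1.52% of all genes, and 1 member, Pfkfb3, was above, beside 9.86% of all genes. On nuclear totals Pdk4 overlapped, which left 3 members below control, beside 1.65% of all genes, and 0 above, beside 6.65%. Without control replicate 1 the count was 6 below and 1 above, beside 2.96% and 16.2% of all genes. Without conditioned-medium replicate 3 it was 7 below and 0 above, beside 2.64% and 6.28%. In the coordinates of the files (GRCm38), Slc2a4 lies on chromosome 11 from 69942539 to 69948188, Hk2 on chromosome 6 from 82725025 to 82774454, Pdk4 on chromosome 6 from 5483351 to 5496309, Ugp2 on chromosome 11 from 21321138 to 21371201 and Pfkfb3 on chromosome 2 from 11471433 to 11554077, all on the minus strand.

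**Figure D2:**
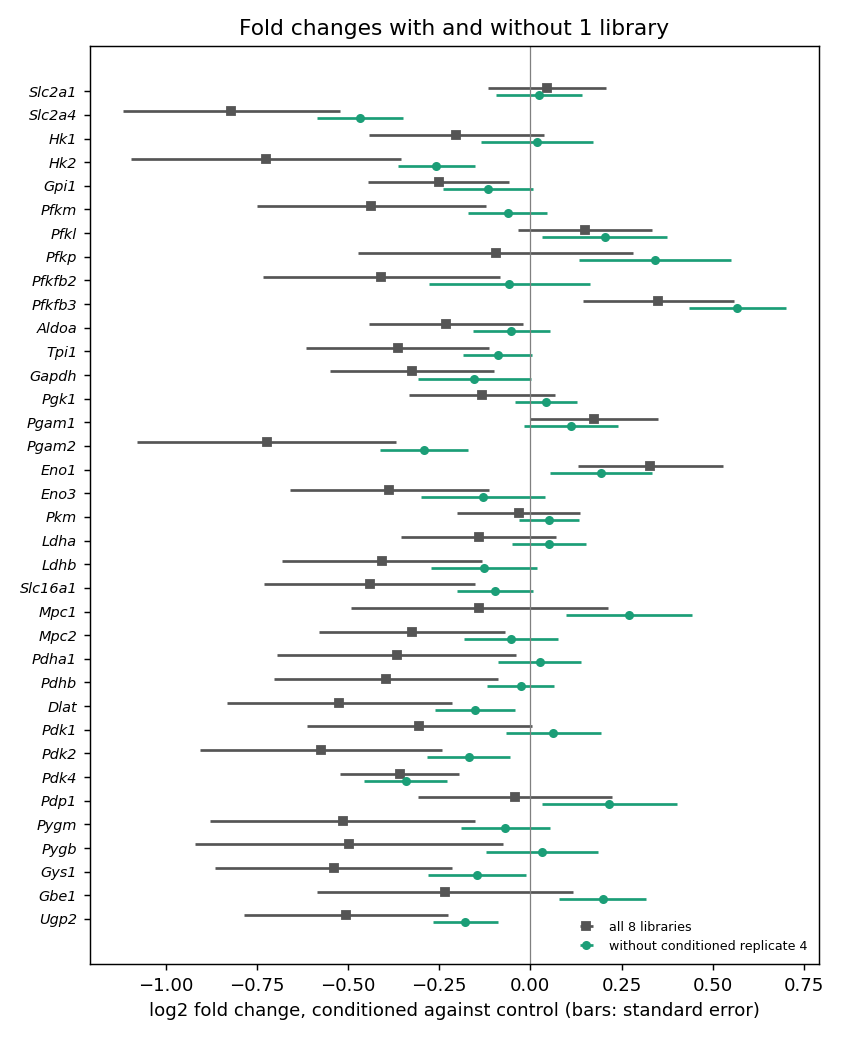
The x axis gives the log2 fold change of conditioned against control medium on the log2(FPKM + 1) scale for each of the 36 members, with limma standard errors as bars. With all 8 libraries (squares) 31 members are negative, and without conditioned-medium replicate 4 (circles) 20 are.

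Among the 5 genes of glucose entry, Slc2a4 had the smallest p of all members. Its level was 17.9, 22.0, 20.1 and 16.6 FPKM in the control libraries. In the conditioned medium it was 13.1, 13.5, 13.9 and 4.45 FPKM. Every conditioned-medium library was below every control library, and replicates 1 to 3 lay close together. The log2 fold change was -0.82 (SE 0.30, adjusted p = 0.42, unadjusted p = 0.0176, limma, n = 4 per group). Without replicate 4 it was -0.47 (SE 0.12, adjusted p = 0.19, limma). Slc2a1, the insulin-independent carrier, was at 31.7, 37.4, 35.5 and 28.9 FPKM in control and 30.2, 35.4, 36.2 and 35.9 FPKM in conditioned medium. These groups overlapped, replicate 4 included, and the log2 fold change was 0.05 (SE 0.16, adjusted p = 0.941, limma).

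The carriers were also compared as a ratio within each library, which does not depend on how a library is scaled. Slc2a4 per Slc2a1 was 0.564, 0.590, 0.566 and 0.574 in the control libraries. In the conditioned medium it was 0.435, 0.381, 0.385 and 0.124. The control values spanned a narrow range, and all 4 conditioned-medium values were below it. The mean log2 ratio was lower by 0.94 with all libraries and by 0.52 with replicates 1 to 3 alone (n = 4 and 3 against 4 control libraries). This pair is 1 of 11 ratios computed, and no test was run on it. Summed endothelial markers were 343 to 415 FPKM in replicates 1 to 3 and 152 to 346.5 in control, and the part of cell composition in this ratio was not tested.

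Hk2, the insulin-responsive muscle hexokinase, was the most abundant gene of glucose entry. Its level was 74.3, 80.5, 74.3 and 67.6 FPKM in control and 54.4, 65.5, 66.0 and 16.2 FPKM in conditioned medium. The groups did not overlap, although replicates 2 and 3 came within a few FPKM of the lowest control library. The log2 fold change was -0.73 (SE 0.37, adjusted p = 0.57, limma), and without replicate 4 it was -0.26 (unadjusted p = 0.035, adjusted p = 0.451, limma). Hk1, the housekeeping hexokinase, and Gpi1, which isomerizes glucose 6-phosphate to fructose 6-phosphate, overlapped between groups. Their log2 fold changes were -0.20 and -0.25, and 0.02 and -0.12 without replicate 4.

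**Figure D3:**
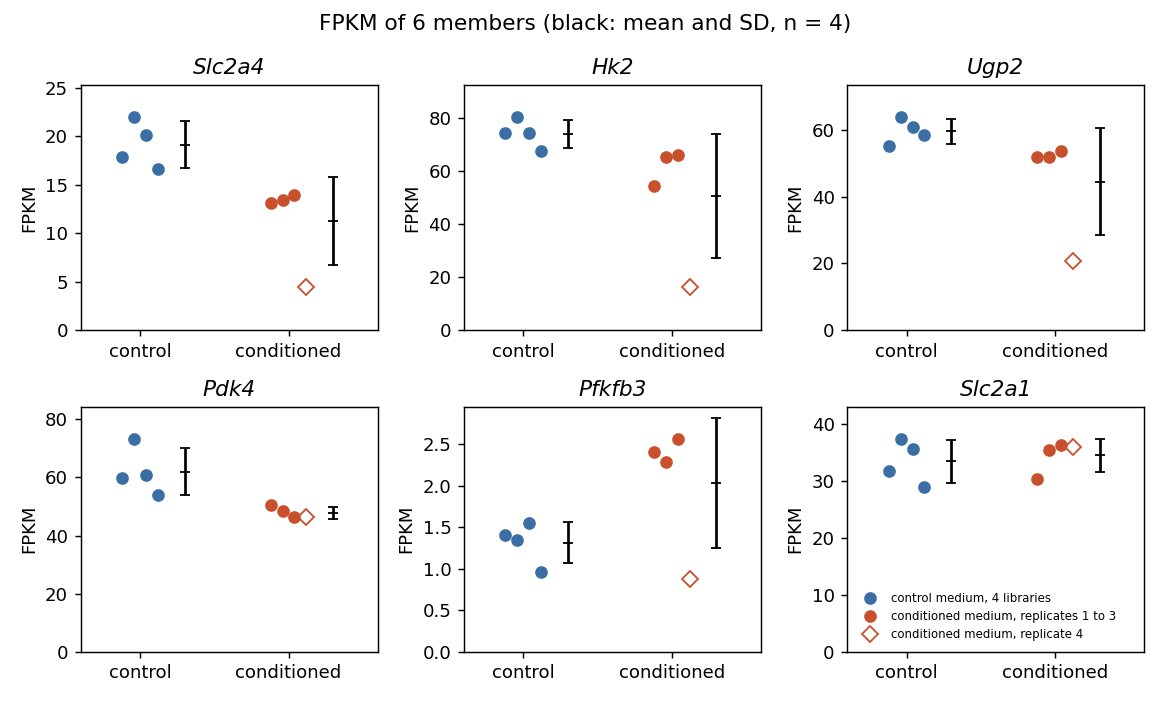
The y axis of each panel gives FPKM of 1 of 6 members in every library, and black marks show the mean and SD of the 4 libraries of a group. For Slc2a4, Hk2, Ugp2 and Pdk4 all conditioned-medium points are below the controls, Pfkfb3 is above control in replicates 1 to 3 and not in replicate 4, and Slc2a1 overlaps.

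At the phosphofructokinase step, 5 of 6 genes were measured and their median log2 fold change was -0.10, or 0.20 without replicate 4. Pfkm encodes the muscle subunit of the enzyme and dominated the step. It was at 104, 121, 119 and 109 FPKM in control and 93.7, 117, 116 and 37.8 FPKM in conditioned medium. Replicates 2 and 3 lay within the control range, and the log2 fold change was -0.44 (SE 0.31, adjusted p = 0.707, limma) with all libraries and -0.06 without replicate 4. The liver-type subunit Pfkl and the platelet-type subunit Pfkp were at 6.06 ± 1.46 and 8.48 ± 2.45 FPKM in control (SD, n = 4). Both overlapped between groups, with log2 fold changes of 0.15 and -0.10.

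Pfkfb2 and Pfkfb3 encode bifunctional enzymes that make fructose 2,6-bisphosphate, the activator of phosphofructokinase. Pfkfb2 is the heart form, and Pfkfb3 is an inducible form with high kinase activity. Pfkfb3 was the least abundant member, at 1.41, 1.34, 1.55 and 0.962 FPKM in control and 2.40, 2.28, 2.57 and 0.874 FPKM in conditioned medium. Replicates 1 to 3 were above all controls, and replicate 4 was below them. The log2 fold change, which the added constant of 1 understates at such low levels, was 0.35 (SE 0.21, adjusted p = 0.63, limma). Without replicate 4 it was 0.57 (SE 0.13, unadjusted p = 0.00167, adjusted p = 0.145, limma), the highest among the members. Pfkfb2 was at 3.31, 4.30, 3.85 and 1.70 FPKM in control and 3.38, 2.79, 2.85 and 0.510 FPKM in conditioned medium, where replicates 1 to 3 lay within the control range. The ratio of Pfkfb2 to Pfkfb3 was 2.35, 3.21, 2.49 and 1.77 in control libraries. It was 1.41, 1.22, 1.11 and 0.583 in conditioned-medium libraries, again without overlap. The heart form thus exceeded Pfkfb3 in every library except replicate 4.

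Lower glycolysis, from aldolase to pyruvate kinase, comprised 9 measured genes, with a median log2 fold change of -0.23, or -0.05 without replicate 4. Aldoa, the muscle aldolase, was the most abundant member in the control libraries. It was at 370, 478, 442 and 460 FPKM in control and 426, 424, 410 and 256 FPKM in conditioned medium. Apart from replicate 4 the values lay within the control range, and the log2 fold change was -0.23 (SE 0.21, adjusted p = 0.76, limma). Pgam2, the muscle phosphoglycerate mutase, had the smallest p of this group of genes. Its level was 199.7, 249, 227 and 249 FPKM in control and 162, 195, 211 and 56.0 FPKM in conditioned medium. Replicate 3 lay inside the control range and the other 3 below it, with a log2 fold change of -0.72 (SE 0.35, adjusted p = 0.555, limma) and -0.29 without replicate 4 (unadjusted p = 0.0369, adjusted p = 0.451, limma). Tpi1, Gapdh and Pgk1, which act between aldolase and the mutase, and the muscle enolase Eno3 had log2 fold changes of -0.36, -0.32, -0.13 and -0.39. Each of the 4 overlapped between groups, and without replicate 4 they ranged from -0.15 for Gapdh to 0.04 for Pgk1.

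Pgam1 and Eno1 encode the widely expressed forms of the same 2 enzymes, and they alone among the members were highest in replicate 4. Pgam1 was at 59.3 FPKM there against 37.3 to 54.0 in control, and Eno1 at 47.2 FPKM against 22.7 to 35.5. The muscle forms were lowest in the same library, so that Pgam2 per Pgam1 was 0.944 against 3.70 to 6.68 in control, and Eno3 per Eno1 was 2.44 against 5.38 to 13.1. In replicates 1 to 3 these ratios were 3.12 to 4.28 and 6.14 to 8.37, overlapping control in both cases. Summed endothelial markers were also highest in replicate 4, and their part in these ratios was not tested.

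Pkm, pyruvate kinase, makes the last step of glycolysis and is spliced with either of 2 mutually exclusive exons, giving the adult muscle isoform M1 or the M2 isoform of fetal, proliferating and many non-muscle cells. The pair is shown because the transcript that carries each exon was quantified separately. Both lie on the plus strand (GRCm38), the M1 exon at chr9:59675029-59675195 and the M2 exon at chr9:59675568-59675734. They have the same length of 167 bases, of which 103 (61.7%) are identical at the same position, and capitals mark the 64 that differ.
Pkm exon of M1, transcript Pkm-202: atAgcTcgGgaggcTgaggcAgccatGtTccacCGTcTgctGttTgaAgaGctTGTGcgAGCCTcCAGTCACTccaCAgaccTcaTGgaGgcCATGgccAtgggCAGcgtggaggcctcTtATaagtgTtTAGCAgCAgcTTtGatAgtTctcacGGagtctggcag
Pkm exon of M2, transcript Pkm-201: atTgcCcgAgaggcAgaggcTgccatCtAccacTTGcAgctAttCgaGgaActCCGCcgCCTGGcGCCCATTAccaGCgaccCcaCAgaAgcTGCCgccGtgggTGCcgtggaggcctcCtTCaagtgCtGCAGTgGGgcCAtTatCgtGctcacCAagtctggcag
At the gene level Pkm was at 243, 244, 237 and 236 FPKM in control and 236, 251, 260 and 196 FPKM in conditioned medium. The groups overlapped, with a log2 fold change of -0.03 (SE 0.17, adjusted p = 0.959, limma). The M1 transcript was at 345, 334, 333 and 324 FPKM in control and 314, 345, 360 and 183 FPKM in conditioned medium. The M2 transcript was at 165.5, 170.3, 160.2 and 184 FPKM in control and 167, 186, 188 and 225 FPKM in conditioned medium. The 9 Pkm transcripts summed to 566 to 598 FPKM in control and 448 to 623 in conditioned medium. These sums were well above the gene values, and the reason was not tested. M1 exceeded M2 in 7 libraries, and the order was turned in replicate 4. M2 made up 33.7% ± 1.81 of M1 plus M2 in control (SD, n = 4), 34.3% to 35.1% in replicates 1 to 3 and 55.2% in replicate 4. Leaving replicate 4 aside, the isoform balance of the conditioned-medium libraries lay within the range of the controls, 32.4% to 36.3%.

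**Figure D4:**
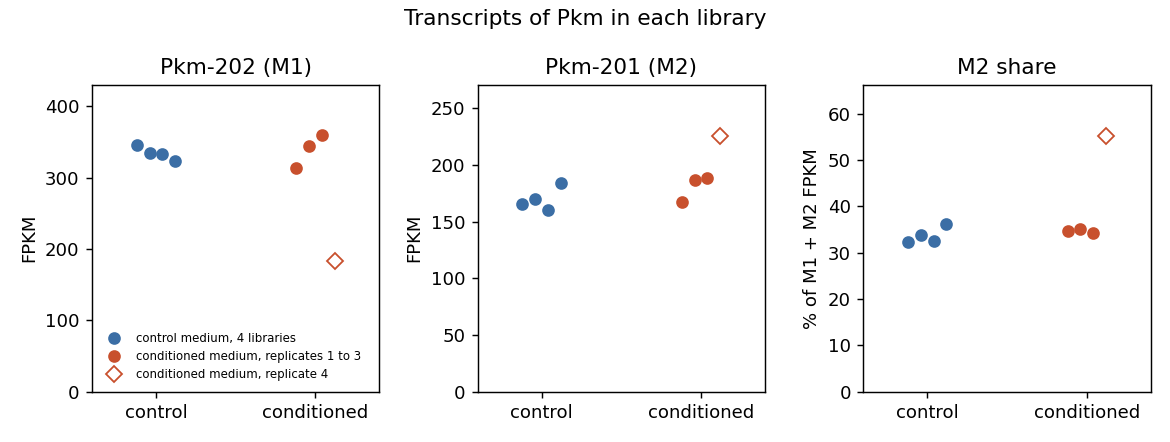
The panels give FPKM of the Pkm transcripts that carry the M1 and the M2 exon, and M2 as a percentage of the sum of both, in each library. In replicate 4 (diamonds) M2 makes up 55.2%, and in the other libraries it stays between 32.4% and 36.3%.

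For lactate, 3 of 4 genes were measured. Ldhb, the heart subunit of lactate dehydrogenase, was second in level to Aldoa among the members. Its level was 295.5, 420.1, 369 and 431 FPKM in control and 295.7, 367, 373 and 158 FPKM in conditioned medium. Control replicate 1 matched conditioned-medium replicate 1, and the log2 fold change was -0.41 (SE 0.28, adjusted p = 0.697, limma), or -0.13 without replicate 4. Slc16a1, the lactate and pyruvate carrier MCT1, had the smallest p of these genes, at 29.1, 31.8, 27.6 and 26.0 FPKM in control and 24.8, 28.1, 27.0 and 9.69 FPKM in conditioned medium. Its log2 fold change was -0.44 (SE 0.29, adjusted p = 0.685, limma), and the groups overlapped. Ldha, the muscle subunit, was at 128 ± 11.3 FPKM in control (SD, n = 4), with a log2 fold change of -0.14. The heart subunit exceeded the muscle subunit in every library, with Ldhb per Ldha at 2.49 to 3.39 in control, 2.45 to 2.71 in replicates 1 to 3 and 2.04 in replicate 4.

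All 9 genes of mitochondrial pyruvate entry and oxidation had negative log2 fold changes, with a median of -0.36. Without replicate 4 they were split into 5 negative and 4 positive, with a median of -0.03. Pdha1, the catalytic subunit of pyruvate dehydrogenase, was the most abundant of them. It was at 224, 278, 263 and 213 FPKM in control and 231, 255, 258 and 82.7 FPKM in conditioned medium. Replicates 1 to 3 lay within the control range, and the log2 fold change was -0.37 (SE 0.33, adjusted p = 0.756, limma). Its partner subunits Pdhb and Dlat had log2 fold changes of -0.40 and -0.52, and -0.03 and -0.15 without replicate 4. The pyruvate carrier subunits Mpc1 and Mpc2 had values of -0.14 and -0.32, which became 0.27 and -0.05 without it.

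Pdk4, a kinase that inactivates pyruvate dehydrogenase and is induced by fasting and fatty acids, was the member with the most even conditioned-medium values. It was at 59.8, 73.4, 61.0 and 53.8 FPKM in control and 50.5, 48.5, 46.3 and 46.2 FPKM in conditioned medium. All 4 conditioned-medium libraries were below control, and replicate 4 was level with replicate 3. The log2 fold change was -0.36 (SE 0.16, adjusted p = 0.517, unadjusted p = 0.0492, limma), and -0.34 without replicate 4 (adjusted p = 0.355, limma). Among the 4 members whose groups did not overlap, Pdk4 moved least when replicate 4 was left out. On nuclear totals the value was -0.25, since replicate 4 then stood at 66.0 FPKM within the control range. Pdk1 and Pdk2, the other kinases of the set, had log2 fold changes of -0.30 and -0.57, and 0.06 and -0.17 without replicate 4. The phosphatase Pdp1, which reactivates the complex, was at 7.46 ± 1.95 FPKM in control and 8.64 ± 0.732 in replicates 1 to 3 (SD, n = 4 and 3). Pdp1 per Pdk4 was 0.0929 to 0.163 in control, 0.167 to 0.195 in replicates 1 to 3, just above the controls, and 0.0802 in replicate 4.

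All 5 glycogen genes had negative log2 fold changes, with a median of -0.51, the lowest of the 6 roles. Without replicate 4 the median was -0.07, with 3 negative. Pygm, the muscle glycogen phosphorylase that releases glucose 1-phosphate, was the most abundant. Its level was 199.5, 253, 250 and 200.3 FPKM in control and 193, 218, 233 and 61.3 FPKM in conditioned medium. Replicates 2 and 3 were within the control range, and the log2 fold change was -0.51 (SE 0.36, adjusted p = 0.705, limma). Ugp2, which makes the UDP-glucose from which glycogen is built, had the smallest p of this role. It was at 55.3, 64.0, 61.0 and 58.5 FPKM in control and 52.0, 52.0, 53.7 and 20.6 FPKM in conditioned medium. The groups did not overlap, but replicates 1 to 3 were only a few FPKM below the lowest control. The log2 fold change was -0.51 (SE 0.28, adjusted p = 0.605, limma), and -0.18 without replicate 4 (adjusted p = 0.492, limma). The brain-type phosphorylase Pygb, the glycogen synthase Gys1 and the branching enzyme Gbe1 overlapped between groups, with log2 fold changes of -0.50, -0.54 and -0.23.

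Levels of the members differed widely in the control libraries. Aldoa led with 437 ± 47.4 FPKM and Ldhb followed with 379 ± 61.9 (SD, n = 4), and their ranges overlapped. Eno3 (263 FPKM), Pdha1, Pkm, Pgam2, Pgk1 and Pygm (226 FPKM) came next, and neighbours in this order did not differ beyond their spread. At the low end stood Pfkl, Pfkfb2 (3.29 ± 1.13 FPKM) and Pfkfb3 (1.31 ± 0.251 FPKM). Where a muscle or heart form and a more widely expressed form were both measured, the former was higher in every control library, for example by 2.10 to 3.03 times for Pygm against Pygb and by 13.6 to 26.0 times for Pfkm against Pfkl. The exception was glucose entry, where Slc2a4 stayed below Slc2a1 in all 8 libraries.

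**Figure D5:**
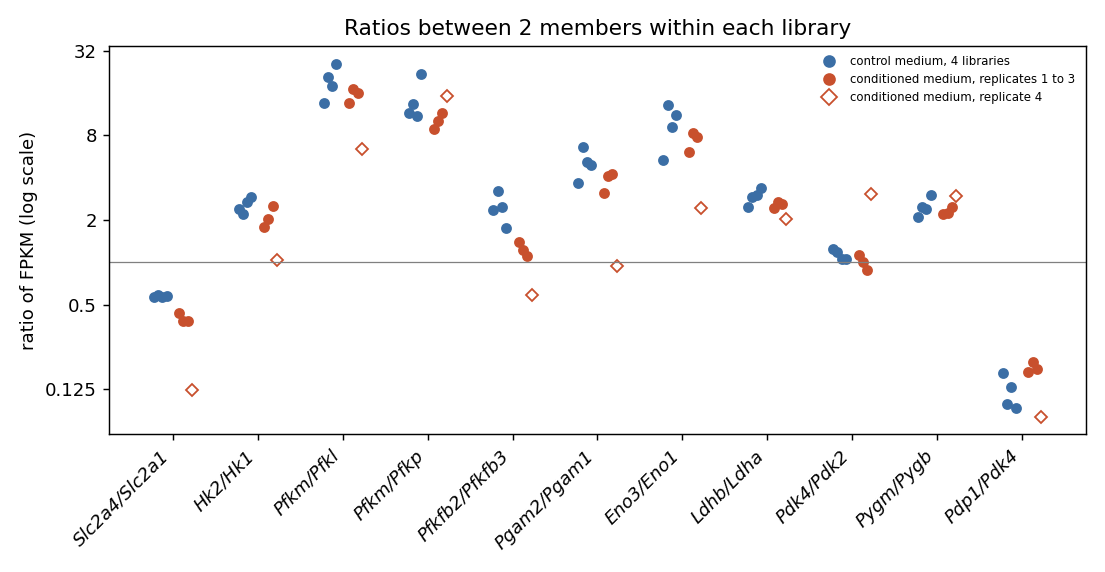
The y axis (log scale) gives the ratio of FPKM of 2 members within each library for 11 pairs. Slc2a4/Slc2a1 and Pfkfb2/Pfkfb3 are the 2 pairs in which the 4 conditioned-medium libraries (orange) do not overlap the 4 controls (blue), and replicate 4 (diamonds) is lowest in 8 pairs.

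Transcript values were less steady than gene values for several members. The table held 92 transcripts of the 36 members, and 18 members had at least 2. For 11 of these 18 the same transcript led in all 8 libraries. Ldha-201 held 79.5% to 85.7% of the FPKM of Ldha transcripts in control, 0% to 79.4% in replicates 1 to 3 and 9.01% in replicate 4. StringTie divides reads among overlapping models, and the shares of further transcripts were not compared. Pgk1 had 1 transcript in the table, and its values there differed from those of the gene. The transcript was at 193, 280.1, 289 and 262 FPKM in control and 135, 159, 151 and 177 FPKM in conditioned medium. All 4 conditioned-medium libraries were below control, with a log2 fold change of -0.70 (unadjusted p = 0.0031, adjusted p = 0.275, limma), against -0.13 and overlapping groups in the gene table. The reason for this gap was not tested.

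Other genes around the same pathway were examined by list, and none of their members rose or fell in the limma fit. Of other genes of glucose entry and glycolysis 12 of 21 were measured, with a median log2 fold change of -0.10. Slc2a10, a carrier of intracellular membranes, was at 0.30 (adjusted p = 0.476, limma) and Tigar, a fructose bisphosphatase and the most abundant of these, at -0.33 (adjusted p = 0.813). Of other genes of pyruvate use 20 of 23 were measured, with a median of -0.30, and 17 were negative. The kinase Pdk3 was at 0.29 (adjusted p = 0.568, limma), the aspartate aminotransferase Got1 at -0.58 (adjusted p = 0.616) and the malate dehydrogenase Mdh1, the most abundant, at -0.34 (adjusted p = 0.754). Of other glycogen genes 26 of 28 were measured, with a median of -0.06. The phosphoglucomutase Pgm1 was at 0.56 (adjusted p = 0.502, limma), Pgm2l1 at 0.37 (adjusted p = 0.537) and the phosphatase Ppp1ca at -0.03 (adjusted p = 0.965). Without replicate 4 the medians of the 3 lists were 0.10, -0.02 and 0.18.

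Genes of the side branches of glycolysis had mostly positive fold changes, as did 6127 of all 11367 genes, and none of the branch genes passed the test. Of 17 genes of the pentose phosphate, hexosamine and polyol branches 16 were measured, 11 were positive and the median log2 fold change was 0.09, beside 0.02 for all genes. Without replicate 4, 13 of the 16 were positive with a median of 0.13, beside 8713 of all genes and a median of 0.12. H6pd, which starts a pentose phosphate branch inside the endoplasmic reticulum, was at 5.85, 1.98, 3.11 and 2.37 FPKM in control and 7.72, 6.30, 5.77 and 10.7 FPKM in conditioned medium. Control replicate 1 reached the conditioned-medium range and the other 3 controls were below it. The log2 fold change was 1.04 (adjusted p = 0.193, unadjusted p = 0.00225, limma), and without control replicate 1 it was 1.28 and passed the test (adjusted p = 0.0334, limma). Gfpt2, which opens the hexosamine branch, was at 0.67 (adjusted p = 0.517, limma), and Taldo1, a transaldolase and the most abundant of these genes, at 0.22 (adjusted p = 0.744). Of 43 listed regulators of glucose use, such as insulin signaling, AMP-activated kinase and hypoxia factors, 42 were measured, 30 were negative and the median was -0.13, or 0.03 without replicate 4. The coactivator Ppargc1a was at -0.64 (adjusted p = 0.455, limma), the insulin receptor substrate Irs2 at -0.51 (adjusted p = 0.458) and the kinase subunit Prkag1, the most abundant, at -0.05 (adjusted p = 0.942).

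Promoters of the set were searched for the letters of 3 known motifs. Promoter windows of 250 bases before to 50 after the gene start were found for 36 of the 38 listed genes, Slc2a4 and Pdp1 being the other two, in 56 entries (RefSeq, GRCm38.p6). The letters ACGTG, the core of the element bound by hypoxia-inducible factors, were present on either strand for 19 of 36 genes (52.8%), beside 29.9% of the 8836 genes of the expression table with a promoter and 21.8% of all 27025. A gene counted if any of its windows matched, so genes with more windows had more chances. The 36 genes had 56 windows, the 8836 had 11308 and the 27025 had 32851. The 36 included Slc16a3, which matched, and Pfkfb1, neither of them among the measured genes. The palindrome CACGTG, an E-box bound by MYC and related factors that contains ACGTG, was present for 6 of 36 (16.7%), beside 12.2% of the table's genes. The interferon-stimulated response element, searched as GAAA, any 2 letters and GAAA again on either strand, was present for 0 of 36, beside 3.70% of the table's genes. The window at an internal start of Pfkfb3 is shown, since this gene had the highest fold change of the set in replicates 1 to 3 and was chosen after its values were seen. It lies at chr2:11502041-11502340 on the minus strand, and capitals mark the CACGTG, which holds ACGTG on both strands.
Pfkfb3 promoter, internal start: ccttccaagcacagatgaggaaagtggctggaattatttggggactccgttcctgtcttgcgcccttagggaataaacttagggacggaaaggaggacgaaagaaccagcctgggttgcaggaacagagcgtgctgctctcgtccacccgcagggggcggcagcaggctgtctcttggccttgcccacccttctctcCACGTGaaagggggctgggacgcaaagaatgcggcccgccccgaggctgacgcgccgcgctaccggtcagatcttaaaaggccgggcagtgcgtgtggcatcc
A match describes these letters only, and whether any factor binds there was not measured.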

How the data were processed

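Total RNA was sequenced from 8 libraries of mouse cardiomyocytes with a stranded kit. The authors used cutadapt for trimming, Hisat2 for alignment to GRCm38 and StringTie for abundance, and deposited FPKM per gene and per transcript from Ballgown. Tool versions and annotation release: not given in the sources used here. All 11367 genes averaged 0.5 FPKM or more in 1 group at least, and no further filter was applied. The methods state the depth ordered for all libraries, but the files hold no read totals and low FPKM were not whole multiples of a common step, so the depth reached per library is unknown. Differences were tested with limma 3.58.1 (R 4.3.3) on log2(FPKM + 1) by medium, with trended variances. The fit was also run on simulated data, in which libraries were drawn independently. No simulated library deviated as conditioned-medium replicate 4 did, so that run does not cover this feature. Figures and sums used Python 3.11.15, pandas 2.3.3, numpy 2.4.6 and matplotlib 3.10.9. Exon sequences came from the GENCODE annotation and transcripts of GRCm38 and promoters from RefSeq. The members and lists were chosen with earlier results of these data known. Values per library were given for the most abundant member and the member of smallest p in each role. The 2 genes of smallest p and the most abundant gene of each other list were named, mostly by fold change and adjusted p alone. Other genes were named after their values were seen. 1 item of this rule is not reported here. Alternatives were another constant, a stricter filter, other scalings, an F test, array weights, a replicate block, transcript sums and libraries left out. The labels do not say that replicate numbers pair libraries.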

Additional observations from a re-analysis of the deposited data

Results flagged for a closer look

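In groups of 4 libraries, a value was singled out where its gap to the next exceeded Dixon's 95% critical value for the group's range, a limit that chance passes in about 1 in 20 groups. Of 72 groups of members tested, 12 passed, and 11 of these were the lowest value of conditioned-medium replicate 4. That library was the lowest of the 8 for 50.3% of all genes. Groups of the same medium share the same 4 libraries, so they are not independent and the 1 in 20 does not apply to their count. The share of all genes that would pass this rule is not given here. There Slc2a4 was at 4.45, Pfkfb3 at 0.874, Aldoa at 255.7 and Pgk1 at 144.5 FPKM. In the same library Pdha1 was at 82.7, Pdhb at 48.4, Dlat at 14.4 and Pdk1 at 4.625 FPKM, and Pygb was at 20.62, Gbe1 at 20.13 and Ugp2 at 20.61 FPKM. The other was Slc2a1 in conditioned-medium replicate 1, the lowest of its group at 30.2 FPKM. No control library was singled out.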

How the results depend on the processing

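The count of members that rose or fell stayed at 0 under every alternative run except array weights. That fit called 3: Slc2a4 at -0.55 (limma, adjusted p = 0.0141), Pfkfb3 at 0.49 (0.0162) and Pdk4 at -0.41 (0.0211). Its weights were 0.377, 1.44, 1.84 and 0.388 for the control libraries and 1.86, 5.52, 3.05 and 0.0826 for the conditioned-medium libraries. Control replicates 1 and 4 were thus also counted for less, and conditioned-medium replicates 2 and 3 for most. Over all genes, against 63, array weights called 933 (882 higher and 51 lower), the F test 0 and the fit without control replicates 2 and 4, which were low in endothelial markers, 3. Leaving out 1 library in turn gave 31 to 110 genes (110 and 31 without control replicates 1 and 2, 39 without control replicate 4, and 35, 40 and 41 without conditioned-medium replicates 1, 2 and 3). The members' median log2 fold change was -0.05 without conditioned-medium replicate 4 and -0.47 to -0.28 without any other single library. The number of members whose groups did not overlap, against 4, was 4 to 7 with 1 library left out, where 1.52% to 4.15% of all genes lay below control and 5.28% to 16.2% above. It was 7 without control replicate 1 or without conditioned-medium replicate 3. It was 3, all below, on nuclear totals (1.65% of all genes) and with median-of-ratios factors (5.20%), and 5, all below, without control replicates 2 and 4 (8.29%). These alternatives were chosen after seeing the data. With the replicate number as a block, 0 members and 69 genes were called and the members' median was -0.34. Same-numbered libraries had correlations of deviations of 0.05, 0.26, -0.18 and 0.06. With 4 libraries per group and conditioned-medium replicate 4 apart from the rest, these values cannot show whether libraries were paired.

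No member and no gene of the other pathway lists had passed the test, so directions could turn only among such genes. The cause of the turns was not tested. On nuclear totals Pkm was at 0.0768, Pdp1 at 0.0467, Ppp1ca at 0.0816 and Prkag1 at 0.0544. After quantile normalization Pgk1 was at 0.032, Pkm at 0.12, Ppp1ca at 0.0838 and Prkag1 at 0.0439. With array weights Slc2a1 was at -0.0189, Pfkp at 0.19, Pgk1 at 0.023, Pkm at 0.0623, Ldha at 0.0439, Mpc1 at 0.43, Pdp1 at 0.21, Gbe1 at 0.10, Tigar at 0.0807, Ppp1ca at 0.0543 and Prkag1 at 0.13. From transcript sums Pfkp was at 0.47, and Pgk1 was at -0.70 (adjusted p = 0.275, limma) against -0.13. Without control replicates 2 and 4 Pfkl was at -0.0763. On nuclear totals without conditioned-medium replicate 4, Slc2a1 was at -0.0139, Pfkp at 0.31, Pgk1 at 0.0037, Pkm at 0.0134, Ldha at 0.0123, Mpc1 at 0.23, Pdk1 at 0.0263, Pdp1 at 0.18, Gbe1 at 0.16, Tigar at 0.0874, Ppp1ca at 0.0115 and Prkag1 at 0.075. With 1 library left out, the ranges that crossed 0 were -0.0191 to 0.10 for Slc2a1, -0.32 to 0.017 for Hk1, -0.30 to 0.34 for Pfkp, -0.20 to 0.0426 for Pgk1, -0.0824 to 0.0523 for Pkm, -0.24 to 0.0511 for Ldha, -0.31 to 0.27 for Mpc1, -0.52 to 0.0254 for Pdha1, -0.45 to 0.063 for Pdk1, -0.20 to 0.22 for Pdp1, -0.70 to 0.0315 for Pygb, -0.41 to 0.20 for Gbe1, -0.52 to 0.12 for Tigar, -0.0641 to 0.0504 for Ppp1ca and -0.13 to 0.11 for Prkag1. H6pd passed the adjusted p without control replicate 1 (0.0334) and, as did Ppargc1a and Irs2, with array weights (0.00578, 0.0294 and 0.0292). The depth reached per library is unknown, so what it limits was not measured.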
